A study of Mus musculus with 9 samples.

Results

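The genes described here encode integrins, laminins and the proteins that link cells to basement membranes. They were taken by name as the protein-coding entries for integrin α and β chains and for laminin α, β and γ chains, with the addition of Nid1, Nid2, Hspg2, Agrn and Dag1. This gave 41 of the 56748 genes in the count table, of which 17 are integrin α chains, 8 integrin β chains, 11 laminin chains and 5 linkers. RNA sequencing was done on wild-type (WT) mouse chondrocytes, the cells of cartilage, released from knee joints with collagenase and grown in culture. Each of 3 groups had 3 libraries. The groups were control cells, cells exposed to the inflammatory cytokine interleukin-1β (IL-1β), and cells that received IL-1β and recombinant SFRP5, a secreted Wnt-binding protein. Doses and times are not in the labels, no group received SFRP5 alone, and all 3 groups share the WT genotype and the culture conditions. The labels do not say whether the libraries of a group are separate animals or cultures, so the p-values reflect only the variation among these libraries, which could be technical.

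Integrins are receptors made of 1 α and 1 β chain that span the cell membrane and tie the surrounding matrix to the actin cytoskeleton. The α chain largely sets the ligand: some α chains bind collagens, others laminins, and others fibronectin and related proteins that carry the RGD motif. Laminins are secreted trimers of 1 α, 1 β and 1 γ chain that form the sheet of a basement membrane, and nidogens, perlecan and agrin connect that sheet to collagen IV and to the cell. Chondrocytes have no continuous basement membrane, but their pericellular matrix contains perlecan, collagen VI and other components of this kind, and chondrocyte integrins such as α10β1 and α5β1 bind collagen II and fibronectin.

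Counts were scaled to CPM, the count divided by a TMM-corrected library size, and 36 of the 41 genes had enough counts to be tested with edgeR's quasi-likelihood test in 1 fit over all genes and all 9 libraries. The threshold was a Benjamini-Hochberg adjusted p under 0.05 over 15502 genes, and "rose" and "fell" are used only for changes past it. With IL-1β against control, 19 of the 36 rose, 16 fell and 1 (Lama3) was not called. In that comparison 78.9% of all tested genes were called, 38.5% higher and 40.4% lower, so most genes of any kind were called. The median log2 fold change of the 36 was 0.25, beside −0.03 for all genes. Among the 36, 19 changed at least 2-fold, 8 up and 11 down, where 39.7% of all tested genes did. With IL-1β and SFRP5 against IL-1β alone, 9 of the 36 rose, 14 fell and 13 were not called, where 31.3% of all tested genes were called (15.6% higher and 15.7% lower). The median log2 fold change was −0.03 in that comparison, beside 0.01 for all genes, and 5 of the 36 changed at least 2-fold, 1 up and 4 down, where 4.12% of all genes did. Against control, the group with IL-1β and SFRP5 had 17 of the 36 higher and 15 lower, where 76.3% of all tested genes were called (37.3% higher and 39% lower). At least 2-fold changes were found for 19 of the 36 in that comparison, beside 36.2% of all genes. The libraries of the groups compared did not overlap for 34 of the 36 genes with IL-1β against control, for 26 with SFRP5 against IL-1β alone and for 32 with SFRP5 against control, beside 80%, 40.8% and 78.2% of all tested genes. The 3 comparisons share libraries in pairs, so each is described by its own values.

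**Figure D1:**
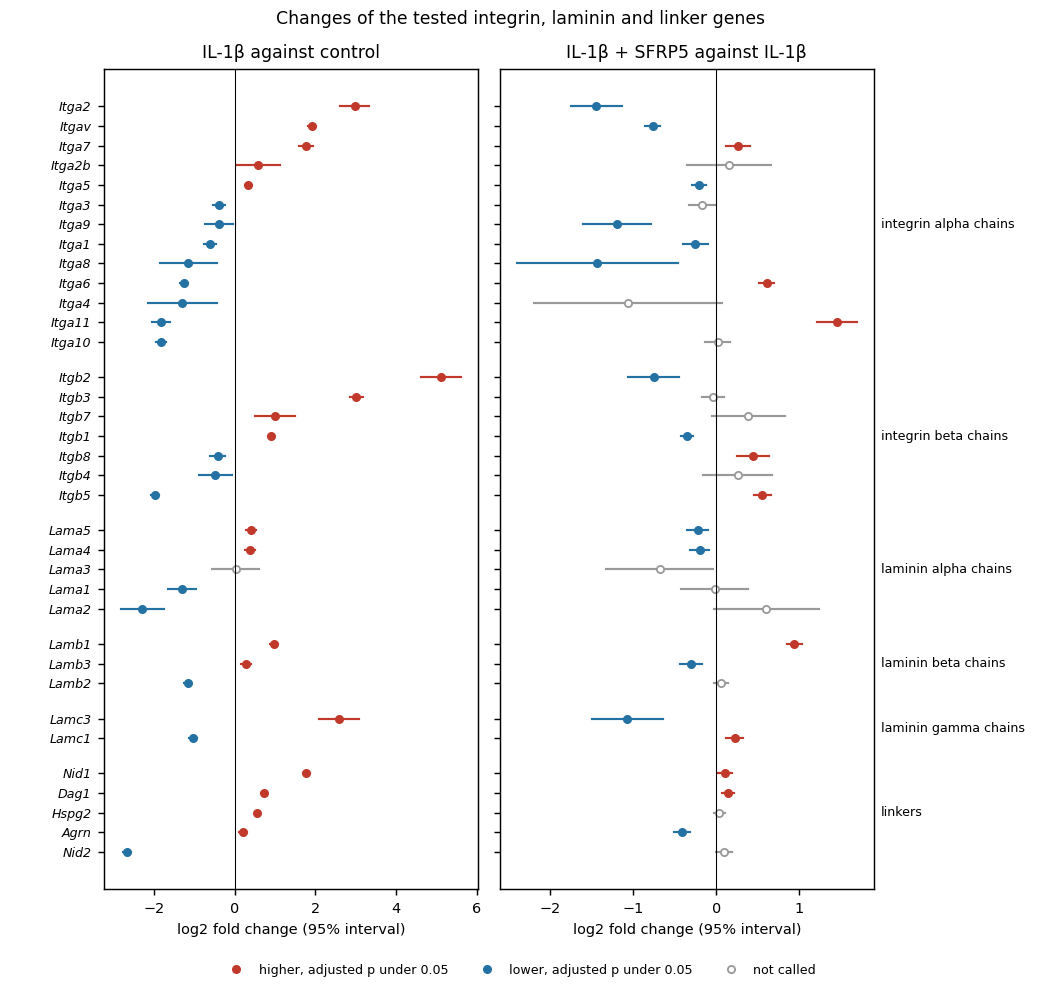
Log2 fold changes (points) with their 95% intervals (bars) for tested genes, by chain type, with IL-1β against control on the left and IL-1β plus SFRP5 against IL-1β alone on the right; filled points passed the test. Itgb2, Itgb3 and Itga2 stand farthest to the right and Nid2 farthest to the left in the first comparison, and Itga11 stands farthest to the right in the second.

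The upstream sequences of 5 integrin genes are shown because these genes carry the contrasts described below: Itga2 and Itgav rose with IL-1β, Itgb5 and Itga10 fell, and Itga11, chosen after its values were seen, fell like Itga10 but differed from it in the group with SFRP5. They are the 250 bases before the annotated transcription start, from RefSeq (GRCm38.p6), written 5′ to 3′ on the strand of the gene. A match to 1 of 3 motifs searched on both strands would stand in capitals: AP-1 (TGANTCA), TEAD (GGAATG) and the NF-κB consensus. Their positions are chr13:114932101-114932350, minus strand, for Itga2, chr2:83724147-83724396, plus strand, for Itgav, chr16:33829415-33829664, plus strand, for Itgb5, chr3:96645334-96645583, plus strand, for Itga10, and chr9:62677605-62677854, plus strand, for Itga11.

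Itga2: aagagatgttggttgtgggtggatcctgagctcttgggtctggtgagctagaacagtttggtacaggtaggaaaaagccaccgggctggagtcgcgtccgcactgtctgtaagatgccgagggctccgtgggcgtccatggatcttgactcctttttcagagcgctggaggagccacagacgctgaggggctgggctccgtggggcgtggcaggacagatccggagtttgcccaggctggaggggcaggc

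Itgav: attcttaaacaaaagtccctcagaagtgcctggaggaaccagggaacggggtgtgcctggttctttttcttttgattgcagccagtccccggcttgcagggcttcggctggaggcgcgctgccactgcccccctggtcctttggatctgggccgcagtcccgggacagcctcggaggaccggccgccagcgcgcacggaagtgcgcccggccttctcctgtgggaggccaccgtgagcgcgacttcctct

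Itgb5: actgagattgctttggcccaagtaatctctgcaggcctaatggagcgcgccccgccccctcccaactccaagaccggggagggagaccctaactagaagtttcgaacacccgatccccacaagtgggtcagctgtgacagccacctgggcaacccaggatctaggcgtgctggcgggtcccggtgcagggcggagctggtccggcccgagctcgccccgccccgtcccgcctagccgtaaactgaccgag

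Itga10: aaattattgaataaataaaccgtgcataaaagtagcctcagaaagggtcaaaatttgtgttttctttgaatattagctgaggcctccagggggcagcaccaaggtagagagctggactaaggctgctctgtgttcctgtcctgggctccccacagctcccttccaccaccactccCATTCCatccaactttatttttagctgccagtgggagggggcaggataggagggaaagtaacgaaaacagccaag

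Itga11: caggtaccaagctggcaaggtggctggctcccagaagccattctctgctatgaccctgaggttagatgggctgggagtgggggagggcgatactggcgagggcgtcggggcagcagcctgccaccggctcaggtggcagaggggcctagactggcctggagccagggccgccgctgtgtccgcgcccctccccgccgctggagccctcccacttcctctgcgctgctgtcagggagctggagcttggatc

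The only match among the 5 was a TEAD motif, read on the reverse strand, that began 75 bases before the start of Itga10. G and C made up 48.0% of the Itga10 sequence and 60.8% to 68.4% of the other 4. Of 32 promoters of 27 of the genes with an entry used here, 4 held the TEAD motif (Itga10, Itgb1, Nid1 and Lamb3), 1 the AP-1 motif (Itgax) and 1 the NF-κB motif (Lamb3). These are 12.5%, 3.12% and 3.12%, beside 12.6%, 6.75% and 7.25% of the 32851 promoters of the same length in the RefSeq table. A match is a run of letters and not a shown binding site.

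Among the 13 tested integrin α chains, 5 rose and 8 fell with IL-1β, with a median log2 fold change of −0.40, beside −0.03 for all genes. Over all tested genes 38.5% rose and 40.4% fell. In the group with SFRP5, 3 rose and 6 fell against IL-1β alone and 4 were not called, where 31.3% of all tested genes were called. Of the 4 α chains of the collagen-binding receptors, Itga2 rose with IL-1β while Itga1, Itga10 and Itga11 fell. In bulk RNA a lower level can come from fewer cells of a type or from less RNA per cell, and these cannot be told apart here.

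Itga10 (ENSMUSG00000090210) encodes the α chain of α10β1, a collagen II receptor that is characteristic of cartilage. Its level was 78.4, 80.9 and 81.5 CPM in the control libraries, 22.2, 23.6 and 22.1 with IL-1β, and 24.8, 23.5 and 20.4 with IL-1β and SFRP5. All treated libraries were below every control library, and the 2 treated groups overlapped. Itga10 fell 3.54-fold with IL-1β (log2 fold change −1.83 ± 0.06 SE, adjusted p = 4.97e-19). The change with SFRP5 against IL-1β alone was 0.02 on the log2 scale with a 95% interval of −0.13 to 0.17 (adjusted p = 0.882).

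Itga11 (ENSMUSG00000032243), the α chain of a receptor for fibrillar collagen I known mainly from fibroblasts, started lower. The control libraries had 22, 24.7 and 30 CPM, the IL-1β libraries 7.66, 6.6 and 7.46, and the libraries with SFRP5 20.2, 19.3 and 20. The groups did not overlap, and the libraries with SFRP5 lay between the others and close to the lowest control. Itga11 fell 3.53-fold with IL-1β (log2 −1.82 ± 0.11, adjusted p = 6.86e-14) and was 2.74-fold higher with SFRP5 than with IL-1β alone (log2 1.45, 95% interval 1.22 to 1.69, adjusted p = 1.96e-10). It remained below control in the SFRP5 group (log2 −0.36 ± 0.09, adjusted p = 0.00124). Thus the falls of Itga10 and Itga11 with IL-1β were of similar size, and their intervals for SFRP5 do not overlap, although the difference between the 2 genes was not tested.

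Itga2 (ENSMUSG00000015533) encodes the α chain of α2β1, a receptor for collagens that is abundant on platelets and epithelia. It was measured at 1.62, 2.44 and 2.49 CPM in control, at 17.1, 18.8 and 16.1 with IL-1β and at 5.33, 8.46 and 5.55 with IL-1β and SFRP5. The 3 groups were fully separated, with the SFRP5 libraries between the other groups. The rise with IL-1β was 7.89-fold (log2 2.98 ± 0.17, adjusted p = 2.72e-14) and the level with SFRP5 was 2.72-fold lower than with IL-1β alone (log2 −1.44 ± 0.15, adjusted p = 3.15e-08). Itga1 (ENSMUSG00000042284), whose product binds collagen IV and collagen I, moved the other way after IL-1β. Its values were 47.7, 47 and 43.8 CPM in control, 27.3, 33.4 and 30.2 with IL-1β, and 25.7, 25.5 and 25.1 with SFRP5. The libraries did not overlap between groups. Itga1 fell with IL-1β (log2 −0.61 ± 0.07, adjusted p = 1.11e-08) and was lower again with SFRP5 (log2 −0.25 ± 0.07, adjusted p = 0.00942). Without IL-1β replicate 2 the latter change was no longer called (log2 −0.18, adjusted p = 0.0923).

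The laminin-binding α chains did not move as a group: Itga7 rose with IL-1β, and Itga6 and Itga3 fell. Itga6 (ENSMUSG00000027111), which pairs with β1 or with β4, had 164, 156 and 165 CPM in control libraries, 68.3, 67.3 and 67.7 with IL-1β, and 100.05, 104 and 106 with SFRP5. No groups overlapped, and the SFRP5 libraries stood midway. Itga6 fell 2.39-fold with IL-1β (log2 −1.25 ± 0.05, adjusted p = 1e-18) and was 1.52-fold higher with SFRP5 than without it (log2 0.61 ± 0.05, adjusted p = 1.01e-10).

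Itga7 (ENSMUSG00000025348), best known as the laminin receptor chain of muscle, was measured at 9.45, 10.8 and 11.2 CPM in control, 35.4, 35.1 and 36.3 with IL-1β and 41.4, 39.4 and 47.1 with SFRP5. Every IL-1β library was above every control library. It rose 3.4-fold with IL-1β (log2 1.76 ± 0.08, adjusted p = 3.37e-16), and the small further rise with SFRP5 (log2 0.26 ± 0.07, adjusted p = 0.00637) was not called without SFRP5 replicate 3 (log2 0.19, adjusted p = 0.0708). Exons of Itga7 overlap those of Mettl7b on the opposite strand in GENCODE M21, and whether the counting used strand is not known. Mettl7b had 287 counts over all libraries, against 4691 for Itga7, and also rose, from 0.0319 ± 0.0277 to 2.64 ± 0.351 CPM (SD, n = 3). Itga3 (ENSMUSG00000001507), a receptor chain for the laminins of epithelia, fell from 39 ± 3.77 to 30 ± 1.54 CPM with IL-1β (log2 −0.38 ± 0.07, adjusted p = 2.82e-05) and had 26.7 ± 0.628 CPM with SFRP5, which was not called against IL-1β alone.

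Among the α chains of receptors for fibronectin, vitronectin and other RGD proteins, Itgav showed the largest rise. Itgav (ENSMUSG00000027087) encodes the αv chain, which pairs with β1, β3, β5, β6 or β8 and takes part in the activation of latent TGF-β. Control libraries held 166, 168 and 165 CPM, IL-1β libraries 641, 601 and 643, and libraries with SFRP5 369, 347 and 396. The groups were fully separated, with control lowest and IL-1β alone highest. Itgav rose 3.78-fold with IL-1β (log2 1.92 ± 0.04, adjusted p = 8.4e-23) and was 1.7-fold lower with SFRP5 than without it (log2 −0.76 ± 0.04, adjusted p = 3.31e-13), which left it 2.23-fold above control.

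Itga5 (ENSMUSG00000000555), the α chain of the fibronectin receptor α5β1, moved less. Its libraries had 159, 165 and 161 CPM in control, 202, 209.6 and 203 with IL-1β, and 181, 171 and 181 with SFRP5. The groups did not overlap in either step. The rise with IL-1β was 1.27-fold (log2 0.34 ± 0.04, adjusted p = 3.46e-08) and the level with SFRP5 was 1.16-fold lower than with IL-1β alone (log2 −0.21 ± 0.04, adjusted p = 0.000295).

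The other tested α chains were scarce, at no more than 7.82 CPM in any library. Itga9, whose product binds tenascin-C and osteopontin, had 7.19 ± 0.858 CPM in control, 5.47 ± 0.839 with IL-1β and 2.36 ± 0.584 with SFRP5. Its fall with SFRP5 against IL-1β alone was 2.29-fold (log2 −1.19 ± 0.20, adjusted p = 3.77e-05). Its smaller fall with IL-1β (log2 −0.40, adjusted p = 0.034) came from overlapping groups and was not called in DESeq2 (adjusted p = 0.0685) or without control replicate 2 or 3 or IL-1β replicate 2 or 3 (adjusted p = 0.0953 to 0.144). Itga8, a nephronectin receptor chain, had 38, 32 and 30 counts in control, 12, 10 and 15 with IL-1β and 4, 5 and 5 with SFRP5. Itga8 was called lower with IL-1β (log2 −1.15 ± 0.34, adjusted p = 0.00391) and lower again with SFRP5 (log2 −1.43 ± 0.47, adjusted p = 0.0217), the latter not without IL-1β replicate 3 (adjusted p = 0.0834) or SFRP5 replicate 1 (adjusted p = 0.103). Itga4, a chain of the VCAM-1 receptor, fell with IL-1β (log2 −1.29 ± 0.42, adjusted p = 0.0067, and 0.0635 without control replicate 1). Its exons overlap those of Cerkl on the opposite strand in GENCODE M21, which had 51 counts over all libraries against 153 for Itga4. Itga2b, the platelet fibrinogen receptor chain, rose from 1.79 ± 0.587 to 2.71 ± 0.352 CPM (log2 0.59, adjusted p = 0.0406, and 0.227 without control replicate 1, 0.0871 without IL-1β replicate 1 and 0.0882 without IL-1β replicate 3). This call was also lost with upper-quartile factors (log2 0.45, adjusted p = 0.117) and with the replicate number as a block (adjusted p = 0.0557). The leukocyte chains Itgae, Itgal, Itgam and Itgax had too few counts for a test. Itgal had 7, 8 and 4 counts in control, 0 in every IL-1β library and 1, 0 and 0 with SFRP5, and Itgae, Itgam and Itgax had between 0 and 6 counts in each library. A count of 0 allows up to 3 counts, which is 0.135 to 0.195 CPM at these depths, and such limits cover counting error only.

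**Figure D2:**
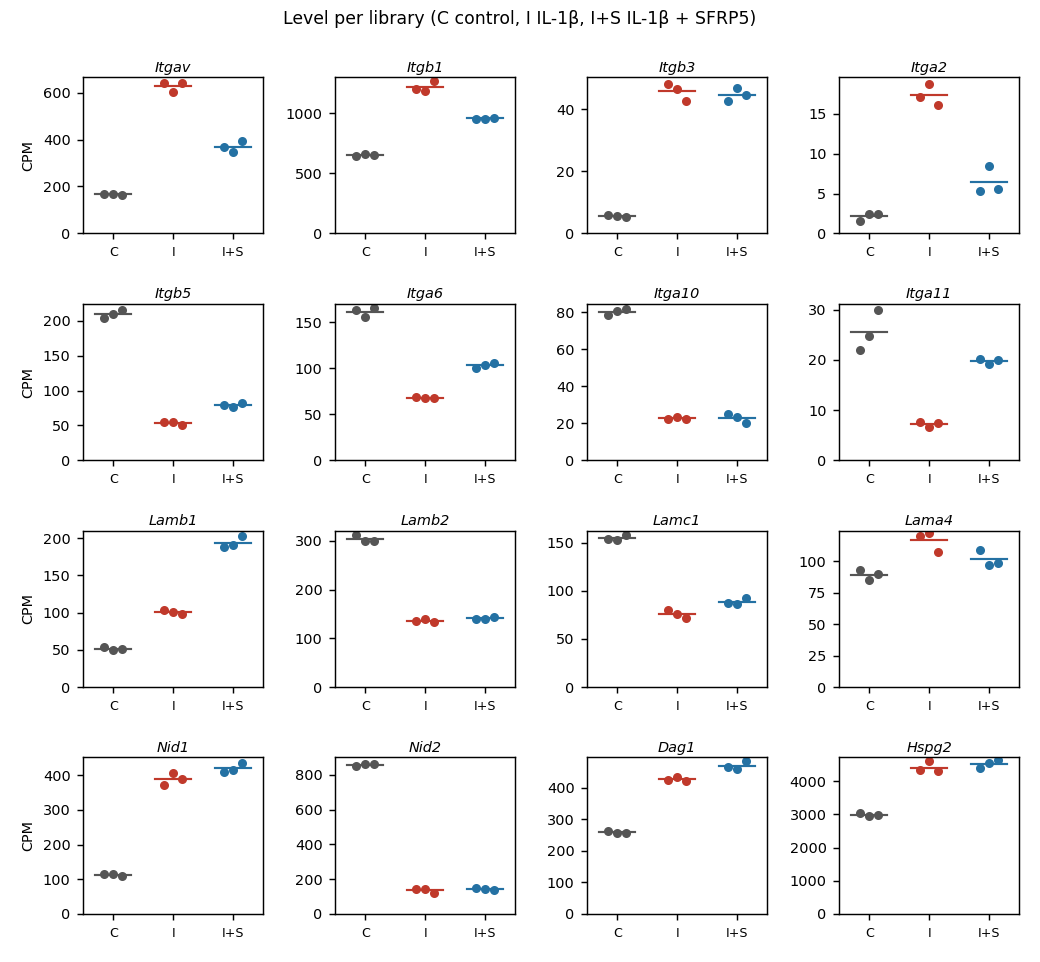
CPM of 16 integrin, laminin and linker genes in each of the 9 libraries (points) with the group mean (line), for control (C), IL-1β (I) and IL-1β plus SFRP5 (I+S); each panel has its own axis from 0. Itgb3 and Itga10 have about the same level in both treated groups, whereas Itga11, Itga6 and Itgb5 lie higher and Itgav and Itga2 lower with SFRP5 than with IL-1β alone.

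Among the β chains, 4 of 7 tested rose and 3 fell with IL-1β, and 2 rose and 2 fell with SFRP5 against IL-1β alone. Over all tested genes 78.9% and 31.3% were called in these comparisons. Itgb1 (ENSMUSG00000025809), the common partner of most α chains described here, was the most abundant β chain per length in every group. Its libraries had 646, 656 and 649 CPM in control, 1198, 1184 and 1268 with IL-1β, and 954, 954 and 957 with SFRP5. All groups were separated. Itgb1 rose 1.87-fold with IL-1β (log2 0.90 ± 0.03, adjusted p = 2.4e-18) and was 1.27-fold lower with SFRP5 than with IL-1β alone (log2 −0.35 ± 0.03, adjusted p = 7.47e-09).

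The β chains that pair with αv went in different directions. Itgb3 (ENSMUSG00000020689), whose product forms the vitronectin receptor αvβ3 and the platelet receptor, had 6.01, 5.55 and 5.33 CPM in control, 48.2, 46.5 and 42.6 with IL-1β, and 42.8, 46.8 and 44.6 with SFRP5. The treated groups overlapped each other and lay far above control. Itgb3 rose 8.12-fold with IL-1β (log2 3.02 ± 0.08, adjusted p = 2.89e-21), and its log2 difference between SFRP5 and IL-1β alone was −0.04 with a 95% interval of −0.17 to 0.10 (adjusted p = 0.727).

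Itgb5 (ENSMUSG00000022817), the β chain of αvβ5, showed the opposite direction with IL-1β. Control libraries had 204, 209 and 216 CPM, IL-1β libraries 55.1, 55 and 51, and libraries with SFRP5 78.7, 76.1 and 82. No library of a group reached another group. It fell 3.91-fold with IL-1β (log2 −1.97 ± 0.05, adjusted p = 2.66e-22) and was 1.47-fold higher with SFRP5 than with IL-1β alone (log2 0.56 ± 0.05, adjusted p = 2.57e-09). Itgb8 (ENSMUSG00000025321), whose pair αvβ8 binds latent TGF-β, had 14.1, 15.9 and 15.8 CPM in control, 11.5, 11.4 and 11.3 with IL-1β and 15.6, 15.2 and 15.8 with SFRP5. Only the IL-1β libraries stood apart: Itgb8 fell with IL-1β (log2 −0.42 ± 0.09, adjusted p = 0.000215) and was higher with SFRP5 than with IL-1β alone (log2 0.45 ± 0.09, adjusted p = 0.000608). The β6 gene Itgb6, an epithelial partner of αv, had 2, 3 and 3 counts in control, 0 with IL-1β and 1, 0 and 2 with SFRP5 and was not tested.

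Itgb2 (ENSMUSG00000000290), the β chain of the leukocyte integrins, had the largest fold change of all these genes. It had 10, 3 and 6 counts in the control libraries, or 0.505, 0.135 and 0.305 CPM, then 10.8, 11.3 and 10.5 CPM with IL-1β and 6.71, 6.5 and 6.08 with SFRP5. The groups did not overlap. Itgb2 rose 34.4-fold with IL-1β (log2 5.10 ± 0.24, adjusted p = 3.37e-16) and was 1.68-fold lower with SFRP5 than with IL-1β alone (log2 −0.75 ± 0.15, adjusted p = 0.000311). Its known α partners Itgal, Itgam and Itgax had 0 to 3 counts in each IL-1β library. The summed level of 15 macrophage markers moved in the same direction, at 17.6 to 18.9 CPM in control, 55.5 to 60.0 with IL-1β and 37.8 to 43.3 with SFRP5. Of these markers 6 were abundant enough to test, of which Cd14, Mrc1, Cd68 and Csf1r rose with IL-1β and Laptm5 fell. Lyz2, the highest of the markers in control, was not called (7.82 CPM in control and 7.83 with IL-1β, adjusted p = 0.981). Most of the higher sum came from Cd14 (1.25 CPM in control and 27.4 with IL-1β) and Mrc1 (1.62 and 11.2 CPM). Adgre1 had 0.325 and 0.397 CPM, C1qa, C1qb and C1qc had group means of at most 0.377 CPM, Cd163 was at 0 in every library and Fcgr1 at 0 with IL-1β. The pan-leukocyte marker Ptprc had a mean of 0.094 CPM in control, 0.24 with IL-1β and 0.12 with SFRP5. The sum of 10 neutrophil markers was also higher with IL-1β, at 5.89 to 7.46 CPM against at most 0.152 in control. With SFRP5 it was 4.93 to 7.22 CPM, which overlapped IL-1β alone. Its 2 tested markers both rose with IL-1β, S100a8 from 0 to 1.48 CPM and Camp from 0.0169 to 5.2 CPM, while S100a9, Ly6g and Ngp were at 0 in every library. Neither S100a8 nor Camp was called between SFRP5 and IL-1β alone (adjusted p = 0.869 and 0.449). The part of other cells in the Itgb2 change was not tested.

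The remaining β chains were low. Itgb7, another leukocyte chain, rose from 1.48 ± 0.333 to 2.96 ± 0.195 CPM with IL-1β (log2 0.99 ± 0.24, adjusted p = 0.000575). Itgb4, the partner of α6 in the hemidesmosomes of epithelia, fell from 4.57 ± 0.275 to 3.3 ± 0.85 CPM (log2 −0.47 ± 0.19, adjusted p = 0.0292), a call lost in DESeq2 (adjusted p = 0.0561) and without control replicate 1 or 2 or IL-1β replicate 2 or 3 (adjusted p = 0.0627 to 0.186). Neither was called between SFRP5 and IL-1β alone.

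To compare chains with each other, counts were divided by the gene length in the table and scaled to the same total in each library (TPM), and each chain was expressed as a percentage of the summed TPM of its type in the same library. TPM carries no TMM correction, and some genes that rose with IL-1β in the test were not higher by TPM. Lama4 (33.1 in control and 32.0 with IL-1β) and Lama5 (18.1 and 17.9) overlapped. Itga5 (146.3 and 138.0), Lamb3 (18.4 and 16.7) and Agrn (52.4 and 45.1) were lower in every IL-1β library. The direction of these small changes thus depends on the scaling. The other genes that rose with IL-1β were also higher in mean TPM. Groups of 3 libraries cannot give a two-sided exact permutation p below 0.1, and p was 0.1 wherever the groups did not overlap. In control cells Itga5 led the α chains with 33.1% ± 0.378 (SD, n = 3), followed by Itga6 with 17.9% ± 0.723 and by Itga10 and Itgav with 15.6% each. Itga10 (15.6% to 15.8%) and Itgav (15.4% to 15.9%) overlapped and do not differ beyond their spread. With IL-1β, Itgav had 45.6% ± 1.36, Itga5 32.4% ± 0.891, Itga6 5.78% ± 0.0329 and Itga10 3.40% ± 0.154. The share of Itgav was higher in all 3 libraries than in any control library (exact permutation p = 0.1), whereas that of Itga5 overlapped control (exact permutation p = 0.3). In the group with SFRP5, Itga5 had 34.9% ± 0.452 and Itgav 33.4% ± 1.13, and these overlapped (34.5% to 35.4% and 32.4% to 34.7%). Without division by length, Itgav (23.5%) and Itga6 (22.9%) overlapped in control, and Itgav led in both treated groups, so the order of these chains depends on the length used.

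Itgb1 made up 71.8% ± 0.512 of the β chain TPM in control, 91.1% ± 0.638 with IL-1β and 86.9% ± 0.103 with SFRP5, and Itgb5 made up 26.6% ± 0.548, 4.63% ± 0.335 and 8.25% ± 0.281. Itgb3 stayed a small part, with 0.43% ± 0.0308 in control, 2.38% ± 0.212 with IL-1β and 2.81% ± 0.129 with SFRP5. The β chains of control cells were thus mostly Itgb1 and Itgb5, and those of treated cells mostly Itgb1. The exact permutation p for each of these steps was 0.1, the smallest possible.

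**Figure D3:**
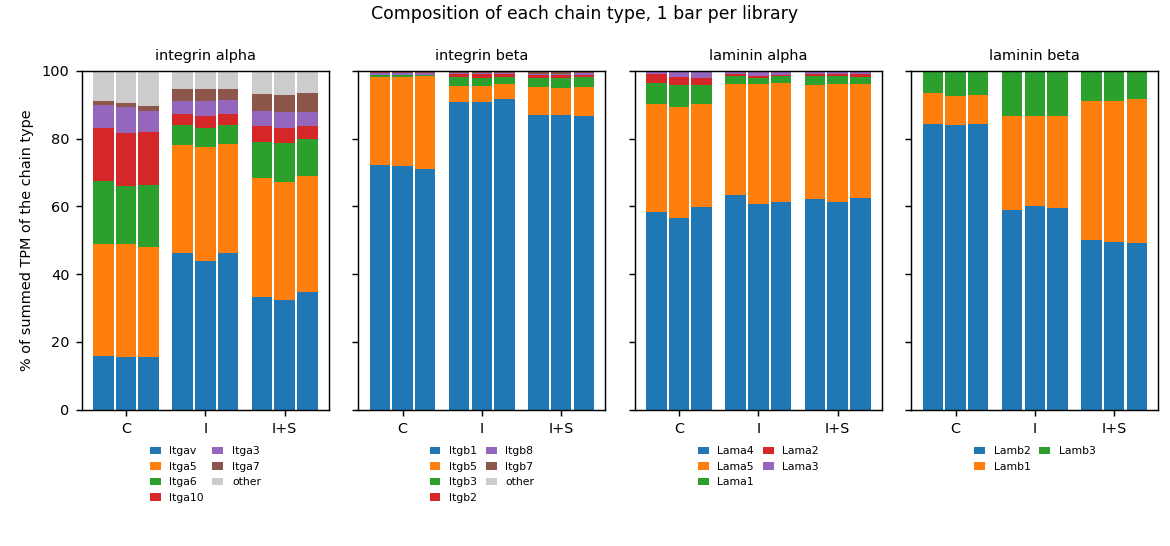
Share of each chain in the summed TPM of its type, in percent, for integrin α and β and laminin α and β chains, with 1 bar per library and the libraries grouped as control (C), IL-1β (I) and IL-1β plus SFRP5 (I+S). The share of Itgav is larger and those of Itga6, Itga10 and Itgb5 are smaller in the IL-1β bars than in control, and the share of Lamb1 grows from control to IL-1β and again in the bars with SFRP5.

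Among the 11 laminin chains, all of which were tested, 6 rose and 4 fell with IL-1β. In the comparison of SFRP5 with IL-1β alone 2 rose and 5 fell. Over all tested genes 78.9% and 31.3% were called in these comparisons. In control cells the leading chains per length were Lama4, Lamb2 and Lamc1.

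Lama4 (ENSMUSG00000019846) encodes the α4 chain, found in vessels, fat and other mesenchymal tissue. It had 93.3, 84.7 and 90 CPM in control libraries, 120.1, 122 and 107 with IL-1β, and 109, 96.8 and 98.4 with SFRP5. The treated groups overlapped each other but not control. Lama4 rose 1.3-fold with IL-1β (log2 0.38 ± 0.06, adjusted p = 9.74e-07), and the lower level with SFRP5 (log2 −0.20 ± 0.06, adjusted p = 0.00816) was not called without IL-1β replicate 2 (log2 −0.16, adjusted p = 0.0599). Lama5 (ENSMUSG00000015647), the chain of most adult basement membranes, had 48.2, 46.6 and 43.6 CPM in control, 59.1, 67.2 and 58.1 with IL-1β and 56.1, 51.8 and 50 with SFRP5. Its groups did not overlap, with IL-1β highest. It rose 1.33-fold with IL-1β (log2 0.41 ± 0.06, adjusted p = 1.13e-06), and its lower level with SFRP5 (log2 −0.22 ± 0.06, adjusted p = 0.00685) was likewise lost without IL-1β replicate 2 (log2 −0.15, adjusted p = 0.0837). These 2 chains made up 58.1% and 31.8% of the laminin α TPM in control cells, and 61.8% and 34.5% with IL-1β.

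The other laminin α chains were scarce. Lama1, the main α chain of early embryonic basement membranes, fell from 7.52 ± 0.665 to 3.05 ± 0.218 CPM with IL-1β (log2 −1.30 ± 0.17, adjusted p = 1.53e-07). Lama2, the chain of muscle and peripheral nerve, fell from 5.14 ± 0.974 to 1.05 ± 0.351 CPM (log2 −2.28 ± 0.26, adjusted p = 1.25e-08). The summed level of 5 Schwann cell markers was also lower with IL-1β, at 23.8 to 31.9 CPM against 168 to 182 in control. That of 9 skeletal muscle markers was 1.88 to 2.45 CPM against 5.54 to 7.81. Of its 5 tested markers, each with a control mean of at most 1.9 CPM, 4 fell and Mylpf was not called (log2 0.09, adjusted p = 0.84). The part of Schwann and muscle cells in the fall of Lama2 was not tested. Lama3, an epithelial chain, had 2.12 ± 0.749 CPM in control and 2.16 ± 0.651 with IL-1β, with a 95% interval of the log2 difference of −0.57 to 0.62. None of these 3 was called between SFRP5 and IL-1β alone.

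The laminin β chains shifted in proportion, from mostly Lamb2 towards Lamb1. Lamb2 (ENSMUSG00000052911), the β2 chain of neuromuscular synapses and kidney glomeruli, had 312, 300.2 and 301 CPM in control, 135, 139 and 134 with IL-1β, and 140.0, 139.9 and 144 with SFRP5. All treated libraries were far below every control library, and the 2 treated groups did not overlap, with SFRP5 slightly higher. Lamb2 fell 2.24-fold with IL-1β (log2 −1.16 ± 0.04, adjusted p = 4.04e-19), and its log2 difference between SFRP5 and IL-1β alone was 0.06 with a 95% interval of −0.03 to 0.14 (adjusted p = 0.334).

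Lamb1 (ENSMUSG00000002900), the β1 chain of most developing and many adult basement membranes, rose in both steps. Control libraries had 53.8, 49.9 and 50.9 CPM, IL-1β libraries 103, 101 and 98.6, and libraries with SFRP5 188, 191 and 202. The 3 groups stood well apart. The rise was 1.96-fold with IL-1β (log2 0.97 ± 0.05, adjusted p = 1.31e-15) and 1.92-fold more with SFRP5 against IL-1β alone (log2 0.94 ± 0.05, adjusted p = 1.83e-14), or 3.76-fold from control to SFRP5. Lamb1 was 8.76% ± 0.173 of the laminin β TPM in control, 27.1% ± 0.501 with IL-1β and 41.7% ± 0.661 with SFRP5, while Lamb2 was 84.3% ± 0.153, 59.6% ± 0.517 and 49.6% ± 0.309 (exact permutation p = 0.1 for each step).

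Lamb3 (ENSMUSG00000026639) encodes the β3 chain, which with the product of Lama3 belongs to the basement membrane of skin. It had 26.6, 28.2 and 27.1 CPM in control, 33.2, 33.4 and 32.8 with IL-1β, and 27, 27.3 and 26.1 with SFRP5. Only the IL-1β libraries lay apart. Lamb3 rose with IL-1β (log2 0.28 ± 0.06, adjusted p = 0.000279) and was lower with SFRP5 than with IL-1β alone (log2 −0.31 ± 0.06, adjusted p = 0.000607). The first call was lost with upper-quartile factors (log2 0.13, adjusted p = 0.0564), which shifted the median of all genes from −0.03 to −0.18. The 6 epithelial markers were too low to test in any group, with sums of 0.425 to 0.909 CPM per library, and Krt14 was at 0 in all libraries.

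Lamc1 (ENSMUSG00000026478), the γ1 chain of most laminins, had 154, 153 and 158 CPM in control libraries, 80, 75.4 and 72 with IL-1β, and 87, 85.9 and 92.3 with SFRP5. Control lay above all treated libraries and the treated groups did not overlap. It fell 2.04-fold with IL-1β (log2 −1.03 ± 0.05, adjusted p = 2.49e-16) and was 1.17-fold higher with SFRP5 (log2 0.22 ± 0.05, adjusted p = 0.00103). Lamc3 rose from 0.944 ± 0.145 to 5.7 ± 0.529 CPM with IL-1β (log2 2.59 ± 0.24, adjusted p = 2.34e-10) and had 2.72 ± 0.569 CPM with SFRP5 (log2 −1.07 ± 0.20 against IL-1β alone, adjusted p = 0.000213). The share of Lamc1 in the laminin γ TPM went from 94.0% ± 0.626 in control to 68.4% ± 2.52 with IL-1β and 77.8% ± 0.486 with SFRP5. Summed over the chains, the laminin β TPM was 265 ± 7.1 in control and 125 ± 0.98 with IL-1β, and the γ TPM 89 ± 1.79 and 44.4 ± 0.662, although TPM depends on all other genes and library factors differed between the groups.

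Of the 5 linkers 4 rose and 1 fell with IL-1β, where 78.9% of all tested genes were called. The nidogens, which join laminin to collagen IV, went in opposite directions. Nid2 (ENSMUSG00000021806) was measured at 847, 862 and 861 CPM in control, 141, 142 and 122 with IL-1β, and 146, 145 and 140.0 with SFRP5. Every treated library was far below control and the treated groups overlapped. Nid2 fell 6.35-fold with IL-1β (log2 −2.67 ± 0.05, adjusted p = 2.76e-25), the largest fall among the 36 genes, and differed by 0.09 on the log2 scale between SFRP5 and IL-1β alone (95% interval −0.01 to 0.19, adjusted p = 0.153). Its exons overlap those of Rtraf on the opposite strand in GENCODE M21. Rtraf had 14471 counts over all libraries against 67193 for Nid2, and went from 116 ± 4.98 to 71 ± 2.78 CPM with IL-1β, which is 1.63-fold lower.

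Nid1 (ENSMUSG00000005397) had 114, 116 and 109 CPM in control, 371, 406 and 389 with IL-1β, and 408, 415 and 435 with SFRP5. It rose 3.44-fold with IL-1β (log2 1.78 ± 0.04, adjusted p = 2.17e-22), with no overlap between groups. A further 1.08-fold rise with SFRP5 was called only narrowly (log2 0.11 ± 0.04, adjusted p = 0.0427). It was not called with RLE factors, in DESeq2, in a fit of only the 6 libraries compared, or in 6 of the 9 fits that left out 1 library (control replicate 1 or 2, IL-1β replicate 1 or 3, SFRP5 replicate 2 or 3), with an adjusted p of 0.0523 to 0.21. Per length, the nidogens of control cells were mostly Nid2, at 740.2 ± 3.3 TPM beside 72.8 ± 2.44 TPM of Nid1, while with IL-1β Nid1 was the higher of the pair, at 186 ± 9.16 TPM beside 86.5 ± 5.87 TPM of Nid2.

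Hspg2 (ENSMUSG00000028763) encodes perlecan, a large heparan sulfate proteoglycan of the pericellular matrix of cartilage, and was the most abundant of the 5 linkers per length in every group. Its libraries had 3026, 2961 and 2967 CPM in control, 4327, 4594 and 4313 with IL-1β, and 4403, 4547 and 4631 with SFRP5. Control was lowest and the treated groups overlapped. Hspg2 rose 1.48-fold with IL-1β (log2 0.56 ± 0.03, adjusted p = 8.1e-15), and its log2 difference between SFRP5 and IL-1β alone was 0.04 with a 95% interval of −0.03 to 0.10.

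Dag1 (ENSMUSG00000039952) encodes dystroglycan, the cell surface receptor for laminin, perlecan and agrin. It had 264, 257 and 256 CPM in control, 425, 435 and 422 with IL-1β, and 466, 461 and 485 with SFRP5, with all groups apart. Dag1 rose 1.65-fold with IL-1β (log2 0.72 ± 0.04, adjusted p = 2e-15) and by a further 1.1-fold with SFRP5 (log2 0.14 ± 0.04, adjusted p = 0.00432). Agrn (ENSMUSG00000041936), which encodes agrin, a proteoglycan that binds laminin and dystroglycan, had 113, 109.8 and 104 CPM in control, 129, 122 and 127 with IL-1β, and 94.1, 92.2 and 98.2 with SFRP5. Its highest libraries were those with IL-1β and its lowest those with SFRP5. Agrn rose slightly with IL-1β (log2 0.21 ± 0.05, adjusted p = 0.000199), which was not called with upper-quartile factors (log2 0.06, adjusted p = 0.215), and was 1.33-fold lower with SFRP5 than with IL-1β alone (log2 −0.41 ± 0.05, adjusted p = 1.34e-07).

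The genes that act with integrins and basement membranes were taken from 6 lists drawn up by function, with earlier results of these data known. In the order in which the lists follow, 86.2%, 94.4%, 91.7%, 100%, 86.7% and 75% of tested genes were called with IL-1β, beside 78.9% of all genes. Between SFRP5 and IL-1β alone the shares were 58.6%, 55.6%, 41.7%, 42.9%, 13.3% and 41.7%, beside 31.3%. The median log2 fold changes of all genes were −0.03 and 0.01. Of 29 tested adaptor and signalling genes, which connect integrin tails to actin and to kinases, 16 rose and 9 fell with IL-1β (median log2 0.33), and 6 rose and 11 fell with SFRP5 against IL-1β alone (median −0.10). The largest rises with IL-1β among abundant genes were in Bcar1, which encodes the scaffold p130Cas, from 44.8 ± 1.59 to 207 ± 10.5 CPM (log2 2.21, adjusted p = 2.69e-23), and in Fermt2, which encodes the integrin activator kindlin-2, from 80.4 ± 3.16 to 315 ± 7.46 CPM (log2 1.97, adjusted p = 1.52e-23). The largest falls were in Tns2, from 231 ± 7.56 to 15 ± 0.818 CPM (log2 −3.94), in Nedd9, a relative of Bcar1 (log2 −2.67), and in Tns1 (log2 −2.49). Tns1 and Tns2 encode tensins, which bind β chain tails in fibrillar adhesions. With SFRP5, Tns2 was higher than with IL-1β alone at 29.5 ± 2.65 CPM (log2 0.96), and the kinase gene Src was lower, at 73.2 ± 1.03 beside 118 ± 3.51 CPM (log2 −0.68, adjusted p = 1.95e-11).

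Of 18 tested secreted ligands of integrins, 5 rose and 12 fell with IL-1β (median log2 −0.73), and with SFRP5 against IL-1β alone 10 rose and 8 were not called (median 0.22). Thbs1, which encodes thrombospondin-1, a ligand of β1 and αv integrins, fell from 16956 ± 251 to 449.8 ± 36.9 CPM with IL-1β (log2 −5.24, adjusted p = 1.68e-29) and had 1271 ± 118 CPM with SFRP5 (log2 1.50 against IL-1β alone, adjusted p = 1.23e-17). Spp1, which encodes osteopontin, an RGD ligand of αv integrins, rose from 253 ± 10.2 to 1886 ± 28 CPM with IL-1β (log2 2.90) and to 2705 ± 101 CPM with SFRP5 (log2 0.52). Fn1, which encodes fibronectin, the ligand of α5β1, rose from 27076 ± 595 to 40647 ± 2100 CPM (log2 0.59) and to 47545 ± 759 CPM (log2 0.23). Tnc, which encodes tenascin-C, rose from 249.6 ± 2.08 to 799.9 ± 18.2 CPM with IL-1β (log2 1.68) and was not called with SFRP5. Vtn, the gene of vitronectin, was not tested: its mean was 0 CPM in control and IL-1β libraries and 0.0393 with SFRP5.

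Of 24 tested basement membrane collagens and associated proteins, 5 rose and 17 fell with IL-1β (median log2 −1.07), and 8 rose and 2 fell with SFRP5 (median 0.07). The 2 that fell were the paired genes of the main collagen IV chains. Col4a1 had 98.2 ± 1 CPM in control, 154 ± 3.72 with IL-1β and 95.1 ± 3.32 with SFRP5 (log2 0.65 and then −0.69), and Col4a2 had 204 ± 4.34, 249 ± 7.78 and 178 ± 7.08 CPM (log2 0.29 and then −0.48). The largest falls with IL-1β among abundant genes were in Smoc2, a secreted calcium-binding protein (log2 −3.51), Pxdn, the peroxidase that crosslinks collagen IV (log2 −1.92), and Col4a5 (log2 −1.86).

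**Figure D4:**
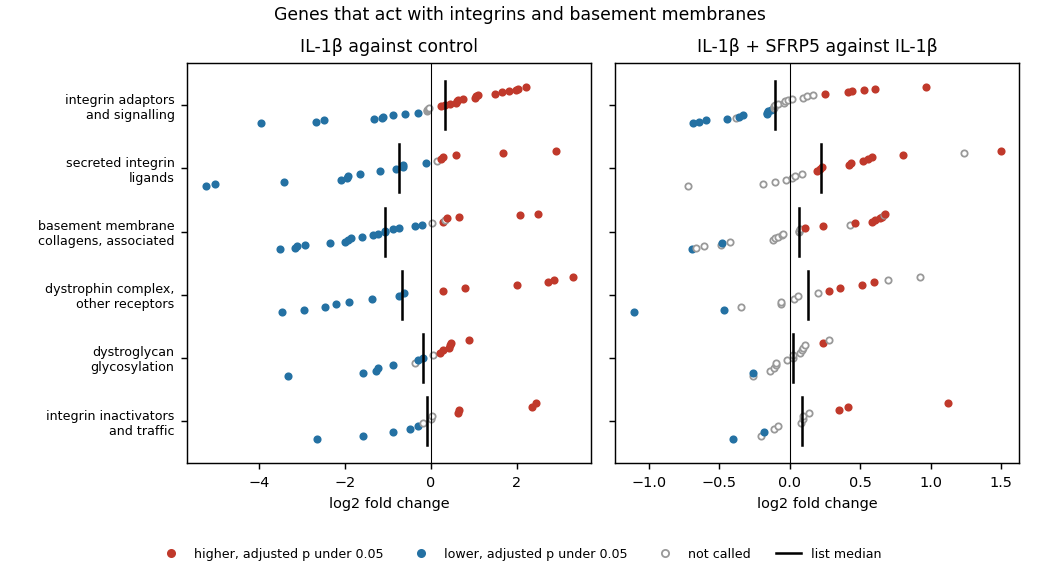
Log2 fold changes of the tested genes of 6 lists (points, spread vertically by rank only), with the median of each list as a vertical bar, for IL-1β against control on the left and IL-1β plus SFRP5 against IL-1β alone on the right; filled points passed the test. The medians of the secreted ligands (−0.73) and basement membrane collagens (−1.07) lie farthest to the left in the first comparison.

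Dystroglycan sits in the dystrophin complex, and 14 genes of this complex and of other laminin receptors were tested. With IL-1β 6 rose and 8 fell (median log2 −0.68), and with SFRP5 4 rose and 2 fell (median 0.13). The cytoplasmic partners Sntb1 (log2 3.29), Dtna (log2 2.87) and Dtnb (log2 2.73), which encode a syntrophin and 2 dystrobrevins, rose with IL-1β, while Sspn, which encodes sarcospan (log2 −2.94), and Dmd, which encodes dystrophin (log2 −2.20), fell. Sntb1 had 4.19 ± 0.294 CPM in control, 41.1 ± 1.56 with IL-1β and 19.1 ± 0.986 with SFRP5, and Dmd 38.5 ± 0.607, 8.37 ± 0.931 and 12.6 ± 0.962 CPM. Of 15 tested genes for the sugar chain through which dystroglycan binds laminin, 6 rose and 7 fell with IL-1β (median log2 −0.17), and 1 rose and 1 fell with SFRP5. Gmppb, which makes the GDP-mannose donor, fell from 33.8 ± 1.72 to 3.42 ± 0.509 CPM (log2 −3.31). Of 12 tested inactivators and traffic genes of integrins, 4 rose and 5 fell with IL-1β (median log2 −0.09), and 3 rose and 2 fell with SFRP5 (median 0.09). Among them Dab2, an endocytic adaptor for integrins, had 398 ± 6.44 CPM in control, 133 ± 2.57 with IL-1β and 170 ± 3.41 with SFRP5 (log2 −1.58 and then 0.35).

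The total count per library was 15795985 to 20688963. The log2 levels of libraries of a group correlated with r of 0.989 to 0.992 across genes, which are not independent replicates, and no 2 libraries of a group were as alike as sampling alone would make them. The 12 chondrocyte markers were all detected in every group, and all fell with IL-1β, with a sum of 116200 to 118800 CPM in control, 26170 to 27460 with IL-1β and 31590 to 33020 with SFRP5. The summed level of 9 pericyte and smooth muscle markers was 991 to 1020 CPM in control, 195 to 209 with IL-1β and 357 to 371 with SFRP5, mostly from Cspg4. Of its 8 tested markers 5 fell and 1 (Notch3) rose with IL-1β, and 3 rose with SFRP5 against IL-1β alone. Both this sum and the chondrocyte sum were lowest with IL-1β and somewhat higher with SFRP5, as were Itga6 and Itga11, whereas Itga10 was not called between the treated groups. Most of the higher chondrocyte sum with SFRP5 came from Col2a1, at 15405.5 CPM with IL-1β and 20767.4 with SFRP5. Of the 12 chondrocyte markers 5 rose, 1 fell and 6 were not called in that comparison (median log2 0.07), so they did not move together. The sum of 8 markers of synovial and other fibroblasts was 267 to 272, 859 to 915 and 1119 to 1152 CPM, mostly from Prg4 in the treated groups. Of its 6 tested markers only Prg4 and Pdpn rose with IL-1β and 4 fell (median log2 −1.83), so the markers of this list did not move together. The part of such cells in these changes was not tested. The endothelial sum was at most 9.95 CPM, mostly from Erg in control, with Emcn and Cldn5 at 0 in every library. Of its 3 tested markers Cdh5 rose with IL-1β from 0.0169 to 1.72 CPM and Tek from 0.29 to 1.35, while Erg fell from 7.91 to 1.51. The lymphocyte sum was at most 0.136 CPM. That of 5 megakaryocyte and platelet markers was 0.15 to 0.36 CPM in control, 1.37 to 1.4 with IL-1β and 0.78 to 1.48 with SFRP5. Its 1 tested marker, Ppbp, rose with IL-1β from 0.21 to 0.97 CPM, while Gp9 and Gp6 were at 0 in every library. The part of such cells in the changes of Itga2b, Itgb3 and Itga2 was not tested.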

How the data were processed

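RNA was sequenced from 9 libraries of mouse knee chondrocytes. Per the labels' protocols and the submitters' processing notes, the authors trimmed 150 bp paired-end reads with fastp, aligned them with STAR to mm10 and counted genes with RSEM, with no versions named. The deposited table holds whole-number counts per gene that are not scaled between libraries; how RSEM's estimates were rounded and whether strand was used are not stated in the sources available. The deposited gene lengths come from the same table. Its gene positions differ from GENCODE M21 for all 41 genes (0 shared both ends), so none is printed. Columns were matched to samples by the group letter and final digit of their names.

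Genes were tested with edgeR 4.0.16 (R 4.3.3): filterByExpr by group, TMM factors, 1 mean per group, quasi-likelihood F test, Benjamini-Hochberg adjustment over 15502 genes. Adjusted p-values are from this test where no other is named. CPM are means ± SD of 3 libraries, log2 fold changes carry an SE from the F statistic, and 95% intervals follow from it. The common biological coefficient of variation was 4.97%. Counts were simulated for IL-1β against control (15090 genes). Only 49, 47, 50 and 50 genes were changed, by −2, −1, 1 and 2 on the log2 scale, and all others kept the same level in every group. Of these, 93.9%, 76.6%, 84% and 100% were recovered, with 7 false calls among the unchanged genes. In the data most genes were called, so the simulation does not test the fit or the scaling under such a broad change. Members and lists were chosen with earlier results of these data known. Values per library are given for tested genes with at least 10 CPM in 1 group that changed at least 2-fold with IL-1β or were called with SFRP5, for Itgb1, Dag1 and Hspg2 and for the leading chain of each type. Of each pathway list, up to 3 of the largest called rises and falls among genes of at least 10 CPM could be named. Alternatives were RLE and upper-quartile factors, no filter on low counts, DESeq2 1.42.0, robust dispersions, a replicate block, only the 6 libraries compared, each library left out, and shares without division by length. Promoters are those of the RefSeq table of GRCm38.p6. The counts cover all tested genes, but 2 of these genes are not reported here by name.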

Additional observations from a re-analysis of the deposited data

How the results depend on the processing

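The counts of the 41 genes called in each direction stayed within 1.5 times of those reported in all 16 alternative fits. Leaving out 1 library at a time gave 18 to 19 higher and 14 to 16 lower with IL-1β, 7 to 9 higher and 11 to 14 lower between SFRP5 and IL-1β alone, and 15 to 17 higher and 15 to 16 lower with SFRP5 against control. Over the 36 tested genes, 3 comparisons and all fits, 1682 of 1727 values kept their direction and side of the threshold, 40 lost the call, 5 gained one and 0 reversed. Genes whose call changed in some fit numbered 6 with IL-1β, 7 between SFRP5 and IL-1β alone and 6 with SFRP5 against control, and those of the first 2 comparisons are named with their values above, apart from Itga4, which was called lower with SFRP5 than with IL-1β alone without SFRP5 replicate 1 (adjusted p = 0.0307). In the SFRP5 group against control, Itga5, Lama4 and Lama5 lost their calls with upper-quartile factors (adjusted p = 0.971, 0.415 and 0.404). Lama5 also lost it without control replicate 3 or SFRP5 replicate 1 (0.0544 and 0.0577), and Itga2b without control replicate 1 or SFRP5 replicate 1 (0.0795 and 0.0737). Lama3 gained a lower call with upper-quartile factors, robust dispersions or without control replicate 1 (0.0215, 0.0462 and 0.0104), and Lamb3 one with upper-quartile factors (0.0299). Of 2208 values of the 46 pathway genes the rule named, 2169 kept their side. Without division by length, Itga5 made up 22.9%, 19.4% and 22.1% of the α chains in control, IL-1β and SFRP5 libraries and Itgav 23.5%, 59.6% and 46.2%; Itgb1 made up 73.3%, 90.5% and 86.2% of the β chains; Lama4 63.2% and 63.4% of the laminin α chains in the IL-1β and SFRP5 groups; Lamb2 79.4%, 50.4% and 39.1% of the laminin β chains; and Lamc1 78.9% of the γ chains with SFRP5. By this measure Lamb1 exceeded Lamb2 in the SFRP5 group. Same-numbered libraries of different groups correlated at −0.0364 to 0.0402 in their deviations from the group means, and differently numbered ones at −0.0388 to 0.0554. No pairing by replicate number was seen, but with 3 libraries a group these values cannot show that the libraries were unpaired. A fit with the replicate number as a block called 18 genes higher and 16 lower with IL-1β, and Itga2b was the gene that lost its call (adjusted p = 0.0557). Genes under about 10 CPM rest on few counts, and those with 0 to 8 counts per library could not be tested.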
